A study of Homo sapiens with 14 samples.

Results

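PPP1R10 encodes PNUTS, the scaffold of a nuclear phosphatase complex, and the genes described here are PPP1R10 and the 5 genes whose products join it in the PTW/PP1 complex: WDR82, TOX4 and the catalytic subunits PPP1CA, PPP1CB and PPP1CC. The 6 genes were taken by symbol from 60876 annotated genes, of which 15426 had enough reads to be tested, and all 6 passed that filter. PPP1R10 was chosen from earlier results on these same libraries, in which its reads differed between groups. Its own values, intervals and calls are therefore given as a description, and nothing is concluded from its tests. The 5 partners were chosen because their products belong to the complex. The cells were MDA-MB-231, a human triple-negative breast cancer line that grows with mesenchymal features. Polyadenylated RNA was sequenced from 7 groups of 2 libraries each. These were a control, RBI2 at 5 µM for 10, 30 or 120 min, and CX-5461 at 5 µM for the same 3 times. The study's methods call the control untreated, while elsewhere the study speaks of a DMSO control. Times are given as the labels state them, but the names of the treated files carry the tags 02, 10 and 30 where the labels say 10, 30 and 120 min, and which is right is not settled here. The study reports that both compounds lower the levels of precursor ribosomal RNA, and CX-5461 served it as the established inhibitor of RNA polymerase I. For RBI2 the study proposes a faster turnover of that RNA. Replicates are numbered in the labels without a statement that they came from separate cultures, so each p-value measures the spread between these libraries only.

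PNUTS holds a PP1 catalytic subunit close to RNA polymerase II, where the complex removes phosphates from the polymerase tail and from the elongation factor SPT5. This slows the polymerase past the polyadenylation site and helps transcription to end. WDR82 reads the phosphorylated tail and is shared with the SET1 histone methyltransferase complexes, TOX4 is a DNA-binding protein with an HMG box, and PPP1CA, PPP1CB and PPP1CC encode the α, β and γ forms of the phosphatase, each of which also works with many other regulatory subunits.

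The start of PPP1R10 is shown because it was the member whose RNA differed most between groups. The gene lies at chr6:30600413-30618612 on the minus strand of GRCh38, and its main transcript, PPP1R10-201, has 20 exons and starts at position 30617243. The RefSeq promoter table of GRCh38.p14 gave a sequence for 5 of the 6 members. The promoter of PPP1R10 is chr6:30617194-30617493, minus strand, 250 bases before to 50 bases after the start site, written 5′ to 3′ with 3 core promoter motifs in capitals (TATAAA, the TATA box; CCAAT, the binding site of NF-Y; GGGCGG, the GC box of Sp1):

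PPP1R10: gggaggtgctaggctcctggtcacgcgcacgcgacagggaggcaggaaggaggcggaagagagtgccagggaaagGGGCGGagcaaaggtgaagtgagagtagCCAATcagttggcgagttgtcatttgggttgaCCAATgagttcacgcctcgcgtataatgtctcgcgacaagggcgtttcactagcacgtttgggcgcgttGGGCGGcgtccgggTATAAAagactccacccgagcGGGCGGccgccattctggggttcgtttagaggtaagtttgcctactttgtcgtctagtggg

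It holds 1 TATAAA, which begins 32 bases before the start site, 2 copies of CCAAT at 147 and 115 bases before it, and 3 copies of GGGCGG at 175, 46 and 11 bases before it. The E box CACGTG was not found in it, nor was the cAMP response element TGACGTCA. The motifs searched do not overlap one another here. Among 35116 promoters of the same length searched on both strands, TATAAA was found in 11.5%, the motif CCAAT in 34.6%, the GC box in 45%, the E box in 7.26% and the cAMP response element in 1.85%. In the 60 bases from 45 before to 15 after the start site, on the strand of the gene, TATAAA was found in 2.71% of promoters. PPP1R10 was the member with TATAAA in that window, and neither WDR82, TOX4, PPP1CB nor PPP1CC had it there.

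The libraries held between 14112299 and 24849354 estimated reads, and the 6 genes together were well covered, from 352 reads of PPP1R10 in CX-5461 10 min replicate 2 to 10546 reads of PPP1CC in CX-5461 120 min replicate 1. Control replicate 2 stood apart from the rest. Mitochondrial genes took 20.6% of its reads against 8.14% to 11.3% in the other 13 libraries, and 1412 genes differed by over 2-fold between the control replicates against 461 to 629 in the other groups. Comparisons with the control therefore also carry values without 1 or the other control library where these change a call. Markers of the line largely went with its name. VIM averaged 3085 CPM (reads scaled to library size) and AXL 1309 CPM, while ESR1 and CDH1 averaged 0.08 and 0.13 CPM. Not every marker was so clear. ERBB2, listed as absent or low, averaged 64.1 CPM, and SPARC, listed as present, 10.4 CPM. The epithelial keratins KRT8 and KRT18, also listed as present, averaged 529 and 478 CPM. In bulk RNA, fewer cells expressing a gene and less RNA per cell cannot be told apart.

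Per length, the phosphatase genes stood well above their scaffold. The median TPM (the authors' length-scaled values, summed over the transcripts of a gene) was 328 for PPP1CC, 242 for PPP1CA, 69.4 for PPP1CB, 56.3 for WDR82, 24.3 for TOX4 and 23.7 for PPP1R10. Over the 13 libraries without control replicate 2, the catalytic genes summed to between 18 and 161 TPM for each TPM of PPP1R10, and without the CX-5461 10 min libraries the highest value was 38.2. PPP1CC carried 48.4% to 56.5% of the catalytic TPM, PPP1CA 30.4% to 41.5% and PPP1CB 9% to 14%. WDR82 RNA also exceeded that of the scaffold, with PPP1R10 at 0.08 to 0.608 TPM for each TPM of WDR82 and at 0.32 or more once the CX-5461 10 min libraries were left out. Control replicate 2 went against these figures, with 2.31 TPM of PPP1R10 for each TPM of WDR82 and a PPP1CA share of 18.7%.

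The question for the complex was whether either compound changed the RNA of its parts, and when. PPP1R10 RNA was low in both libraries of CX-5461 10 min and in no other library. Scaled by the TMM method, it stood at 91.5 and 107 CPM in the control, 19.9 and 19.6 CPM at CX-5461 10 min, 80.2 and 71.9 CPM at 30 min, and 76.4 and 86.7 CPM at 120 min. With RBI2 it stood at 123 and 131 CPM at 10 min, 86.6 and 85.5 CPM at 30 min, and 102.5 and 102 CPM at 120 min. The lowest of the other 12 libraries was therefore over 3 times the highest CX-5461 10 min library. The group means ran in the order RBI2 10 min (127 CPM), RBI2 120 min (102 CPM), control (99.3 CPM), RBI2 30 min (86.1 CPM), CX-5461 120 min (81.6 CPM), CX-5461 30 min (76 CPM) and CX-5461 10 min (19.7 CPM). In that order RBI2 10 min and CX-5461 10 min did not overlap their neighbours, RBI2 120 min overlapped the control, the control lay above RBI2 30 min without overlap, and RBI2 30 min, CX-5461 120 min and CX-5461 30 min overlapped in turn.

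**Figure D1:**
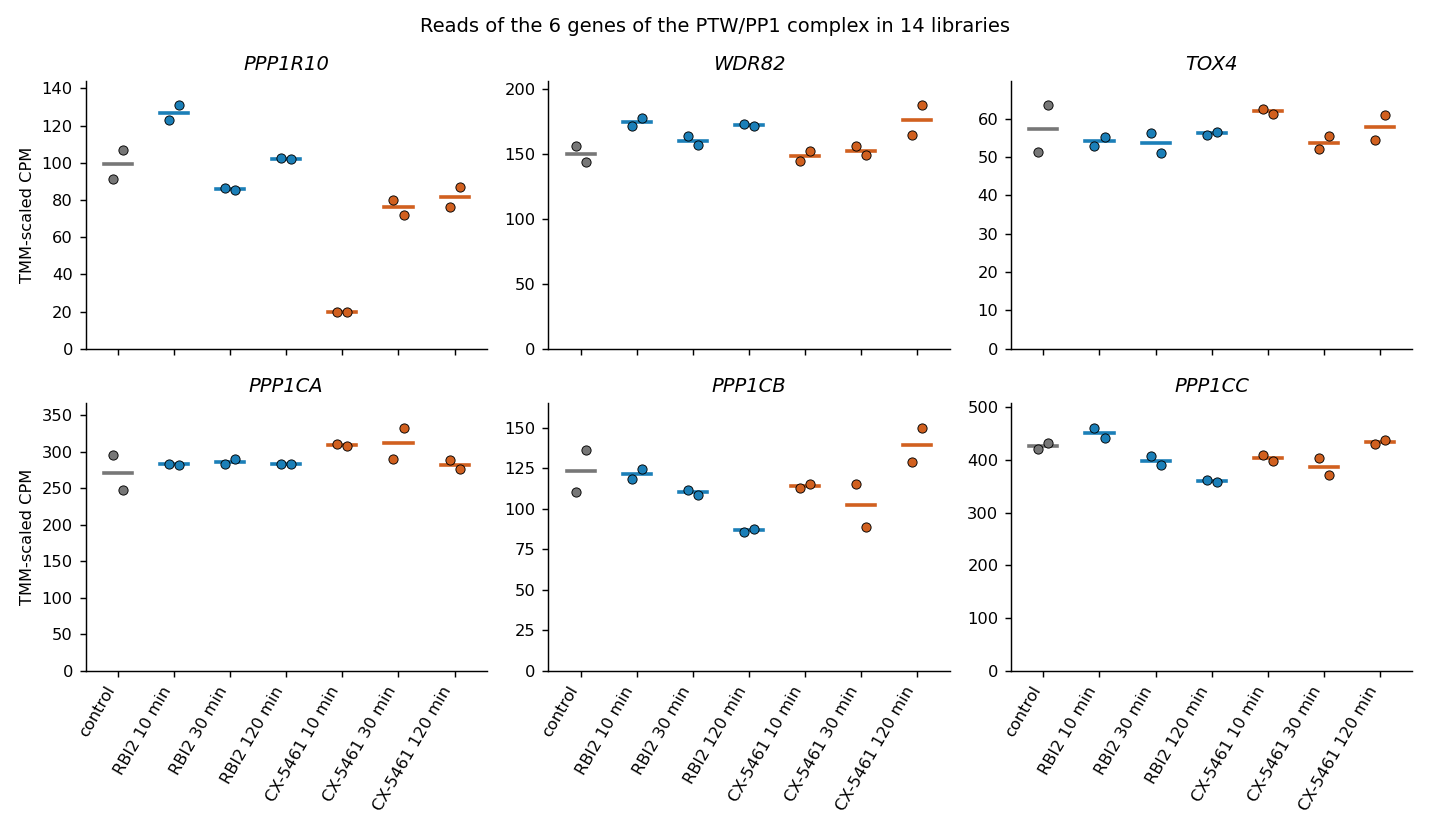
TMM-scaled CPM (y axis, from 0) of the 6 genes of the complex in the 7 groups (x axis); points are the 2 libraries of a group and bars their mean. PPP1R10 stood at 19.9 and 19.6 CPM at CX-5461 10 min and at 71.9 CPM or more in every other library, while each partner varied by at most 1.61-fold between group means.

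In the model of all groups, PPP1R10 at CX-5461 10 min was 5.03-fold below the control level, with a log2 difference of -2.33 (SE 0.10, 95% interval -2.56 to -2.10). At the same time and dose, RBI2 gave 6.43-fold more PPP1R10 RNA than CX-5461, with a log2 difference of 2.68 and a 95% interval of 2.46 to 2.91. The later CX-5461 groups lay closer to the control, at -0.38 (SE 0.10) after 30 min and -0.28 (SE 0.10) after 120 min on the log2 scale. The RBI2 groups stood at 0.36, -0.20 and 0.05 against the control after 10, 30 and 120 min, each with SE 0.10. RBI2 against CX-5461 differed by 0.18 at 30 min (95% interval -0.03 to 0.39) and by 0.33 at 120 min (0.12 to 0.54). Leaving out any 1 library moved the CX-5461 10 min difference from the control between -2.44 and -2.23. With an offset for transcript length it was -3.26, and with only the 4 libraries of the comparison it was -2.31 and was not called. Of 7279 genes with a mean of at least 20 CPM, 10 had a wider fold between their highest and lowest group means than the 6.43-fold of PPP1R10. A place near the top follows from the choice of this gene by its differences between groups.

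Calls required an adjusted p under 0.05 (edgeR quasi-likelihood, Benjamini-Hochberg over all 15426 genes) and a change of at least 2-fold. PPP1R10 met both at CX-5461 10 min against the control, where 1.64% of all genes did, and at RBI2 10 min against CX-5461 10 min, where 1.04% did. It was chosen on such contrasts, so nothing is read from these calls. None of the 5 partners was called in any of the 9 comparisons. Of their 45 values, 10 had an unadjusted p under 0.05 in edgeR, none of them with a 2-fold change, and DESeq2 called 0. In the other comparisons 0.0778% of genes were called for RBI2 10 min against control, 0.0389% for RBI2 30 min, 1.82% for RBI2 120 min, 0.0454% for CX-5461 120 min, 0.013% for RBI2 against CX-5461 at 30 min and 1.67% at 120 min. For CX-5461 30 min against control edgeR called 0% of genes, with 331 genes of 2-fold change at an unadjusted p under 0.05 and 16 called by DESeq2. The 6 comparisons with the control share its 2 libraries, and their counts depend on which of these is kept. Without control replicate 1 they called between 574 and 1308 genes each, and without control replicate 2 between 0 and 167. The partners were called in none of these.

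**Figure D2:**
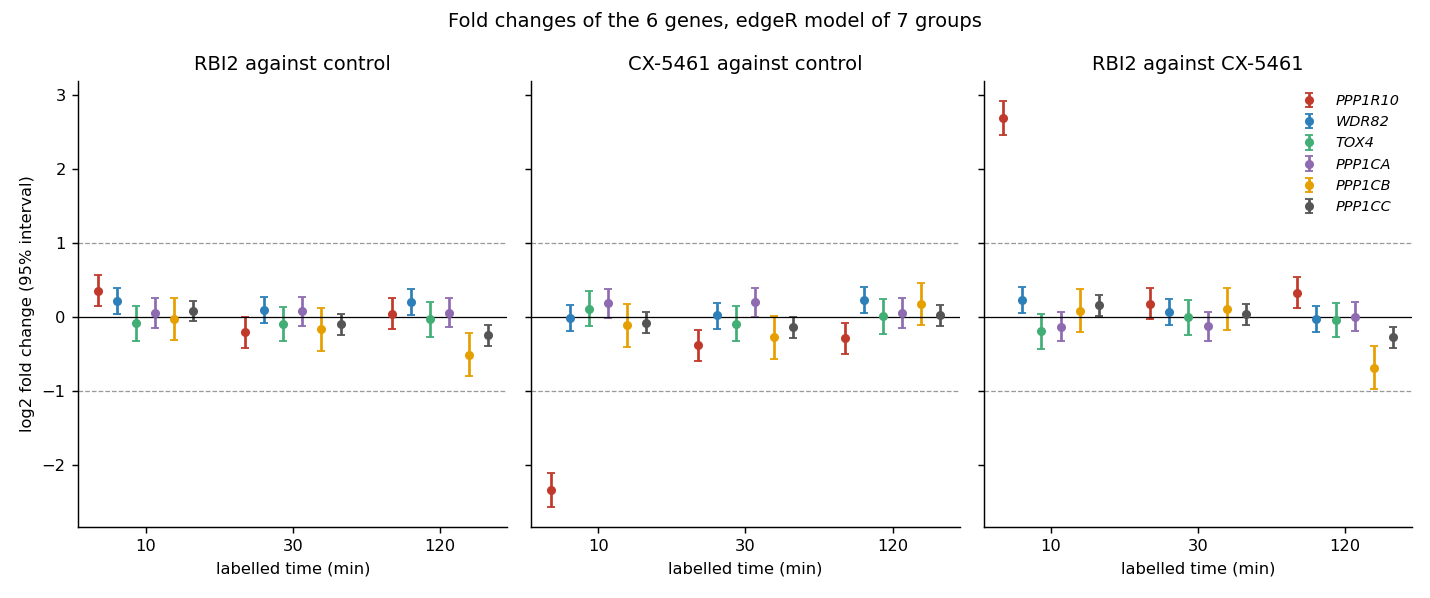
Log2 fold change with its 95% interval (y axis) of the 6 genes at each labelled time (x axis, min), for RBI2 against control, CX-5461 against control and RBI2 against CX-5461; dashed lines mark a 2-fold change. PPP1R10 lies at -2.33 for CX-5461 10 min against control and 2.68 for RBI2 against CX-5461 at 10 min, and all values of the partners lie between the dashed lines.

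The reads of PPP1R10 came almost wholly from 1 transcript. PPP1R10-201, a coding transcript of 4511 bases, took 97.5% to 100% of the reads of the gene in 13 libraries, both CX-5461 10 min libraries among them, and 84.3% in control replicate 2. By TPM, which weights short transcripts more, its mean share was 80.4%, with 66.6% to 100% in 13 libraries and 19.7% in control replicate 2. That library alone gave reads to PPP1R10-204, 3.95% of those of the gene. Salmon's average length for PPP1R10 was 1982 bases there and 4194 to 6515 bases in the other libraries, so TPM of PPP1R10 read 49.8 in control replicate 2 and 20.5 in control replicate 1 although the CPM values, 107 and 91.5, were close. For that reason CPM carries the comparisons between groups here.

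MRPS18B, a gene for a mitochondrial ribosomal protein, starts 772 bases from PPP1R10 on the opposite strand, and the annotations overlap by 773 bases through PPP1R10-204. It stood at 96.7 and 57.4 CPM in the control and at 93.3 and 93.9 CPM at CX-5461 10 min, a log2 difference of 0.28 (adjusted p = 0.35, edgeR with Benjamini-Hochberg adjustment). The value moved with the control replicates: it was 0.70 (adjusted p = 0.000286) without control replicate 1 and -0.06 (0.871) without control replicate 2, below 2-fold in each case. Among the other genes that overlap a member or start within 5 kb of one, CARNS1, which crosses PPP1CA on the opposite strand, was called at CX-5461 10 min, from 0.25 and 0.32 CPM in the control to 1.19 and 1.17 CPM (log2 2.04, adjusted p = 0.04 in the same test), but not without control replicate 2 (2.20, adjusted p = 0.136). SPDYA shares a strand and 20424 bases with PPP1CB but held 76 reads in all 14 libraries together.

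**Figure D3:**
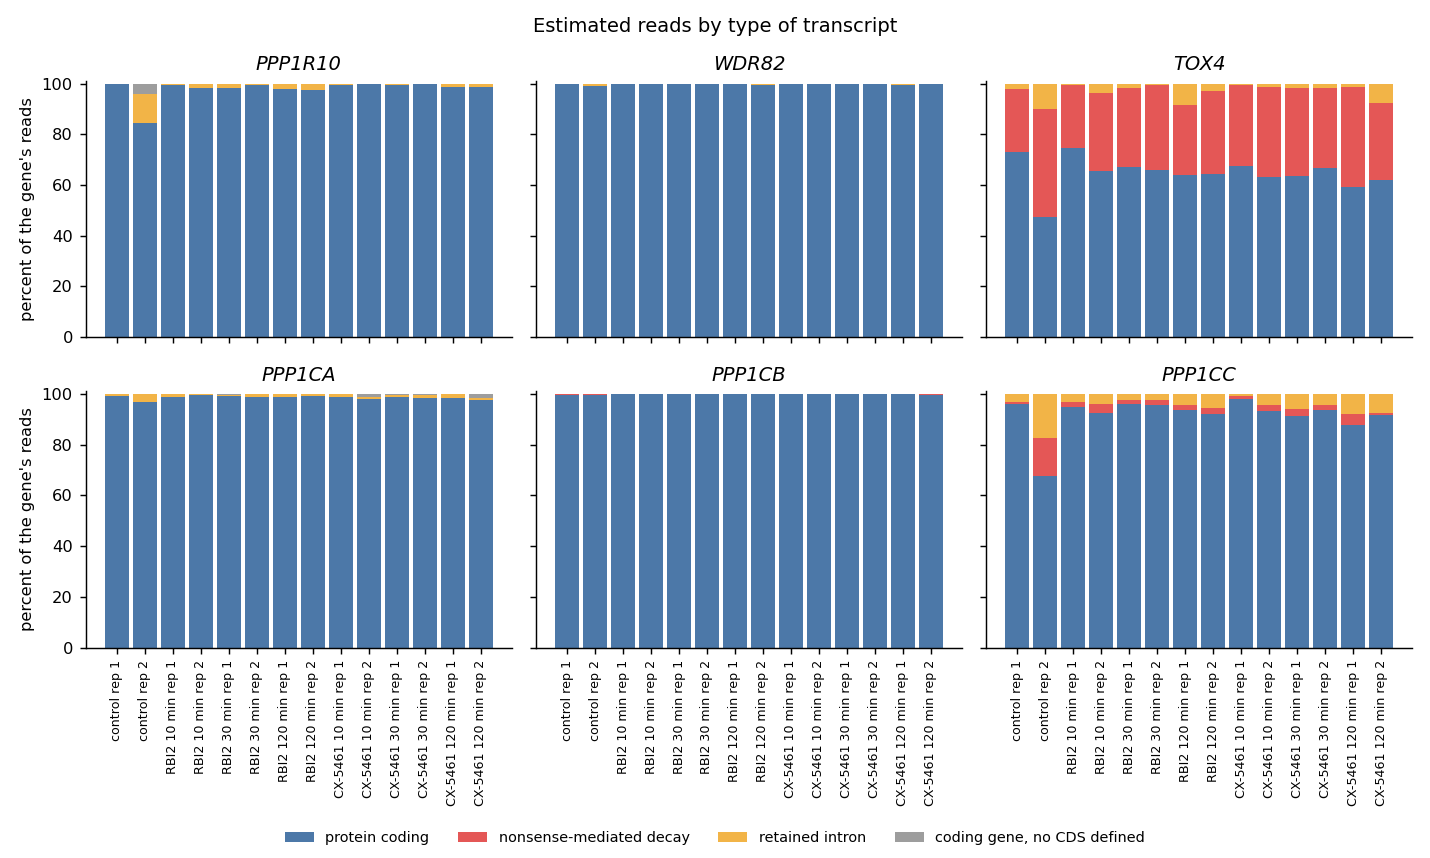
Percent of the estimated reads of each gene (y axis) that Salmon gave to each type of transcript, by library (x axis). Coding transcripts dominate 5 of the genes in the 13 libraries other than control replicate 2, while TOX4 has a large part, a mean of 32.2% for TOX4-205, on a transcript annotated for nonsense-mediated decay.

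WDR82, the subunit that binds the phosphorylated polymerase tail, showed no loss in the group where its scaffold was low. It stood at 156 and 144 CPM in the control and at 145 and 153 CPM at CX-5461 10 min, a log2 difference of -0.01 (95% interval -0.19 to 0.16). The CX-5461 30 min libraries held 156 and 149 CPM and the 120 min libraries 165 and 188 CPM. RBI2 gave 171 and 178 CPM at 10 min, 164 and 157 CPM at 30 min and 173 and 172 CPM at 120 min. All 14 libraries lay between 144 and 188 CPM. Both libraries of each RBI2 group and of CX-5461 120 min stood above both control libraries. These groups were all set against the same control libraries, so their positions are not independent of one another. The control library that stood apart from the rest also held the lowest value of all 14, 144 CPM. The share of all genes with this pattern was not counted, so nothing is read from it. The largest of the 9 differences, 0.23 for RBI2 against CX-5461 at 10 min, had an adjusted p of 0.182 in edgeR with Benjamini-Hochberg adjustment. The highest and lowest group means were 1.18-fold apart, and 6175 of the 7279 well-measured genes had a wider range.

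TOX4 varied as little. It stood at 51.2 and 63.4 CPM in the control, 62.5 and 61.2 CPM at CX-5461 10 min, 51.9 and 55.5 CPM at 30 min and 54.4 and 61 CPM at 120 min. With RBI2 it stood at 52.9 and 55.2 CPM, 56.2 and 51.1 CPM, and 55.8 and 56.6 CPM. All treated libraries except 1 at 51.1 CPM lay within the range of the control, and the 9 log2 differences ran from -0.19 to 0.11. The lowest, for RBI2 against CX-5461 at 10 min, had a 95% interval of -0.43 to 0.04. TOX4 was the member with the most divided reads: the coding TOX4-203 took a mean of 63.0% of reads and 44.7% of TPM, and TOX4-205 took a mean of 32.2% of reads. In control replicate 2 the share of TOX4-203 was 27.8% of reads.

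The 3 catalytic genes were measured together at 729 to 863 CPM in every library, with the lowest sums, 731 and 729 CPM, at RBI2 120 min. PPP1CA, the α form, stood at 295.5 and 248 CPM in the control and 311 and 308 CPM at CX-5461 10 min, and the 12 treated libraries ranged from 276 to 333 CPM. Control replicate 2 held the lowest value, and the group means were at most 1.15-fold apart. Its differences ran from -0.13 to 0.20 on the log2 scale, and the 95% interval for RBI2 against CX-5461 at 10 min was -0.33 to 0.07. No member of the complex other than PPP1R10 thus differed by 2-fold at CX-5461 10 min.

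PPP1CB, the β form, was lowest at RBI2 120 min. Both libraries of that group, at 86.0 and 87.8 CPM, lay below all 12 others, the nearest being 88.9 CPM in CX-5461 30 min replicate 2. The control libraries held 111 and 136 CPM and the CX-5461 120 min libraries 129 and 150 CPM. At RBI2 120 min PPP1CB was 1.42-fold lower than the control, with a log2 difference of -0.51 (SE 0.13, adjusted p = 0.0286 by edgeR with Benjamini-Hochberg adjustment), and 1.61-fold lower than CX-5461 120 min, with a difference of -0.69 (SE 0.13, adjusted p = 0.0118). Neither reached 2-fold. By adjusted p alone, 18% of all genes passed against the control and 16.1% against CX-5461 120 min, so a pass of this kind is common at that time. Without control replicate 2 the first difference was -0.37 with an adjusted p of 0.0887, and without CX-5461 120 min replicate 2 the second was -0.53 with an adjusted p of 0.0857. Leaving out RBI2 120 min replicate 1 or 2 gave adjusted p of 0.137 and 0.0955 for the first difference and 0.0816 and 0.0717 for the second.

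PPP1CC, the γ form and the most abundant of the 3, moved with PPP1CB at that time but by less. It stood at 421 and 431 CPM in the control, 361 and 358 CPM at RBI2 120 min and 430 and 437 CPM at CX-5461 120 min. The RBI2 120 min libraries were again the lowest of the 14. The log2 differences were -0.24 (SE 0.06, adjusted p = 0.0298, edgeR with Benjamini-Hochberg adjustment) and -0.27 (adjusted p = 0.0214). Leaving out 1 library took the adjusted p to 0.051 or above in 10 of 14 cases against the control (0.051 to 0.158) and in 8 of 14 against CX-5461 120 min (0.0644 to 0.179). Base composition went with these differences. Transcripts of PPP1CB were 35.9% GC, lower than all but 2.3% of the genes tested, and those of PPP1CC 40.1%, against a median of 48.1%. Across all genes, the median log2 difference of RBI2 120 min from the control was -0.32 in the lowest of 4 equal GC classes and 0.35 in the highest (Pearson r = 0.322 and Spearman rho = 0.596 across genes, which are not independent). After a correction for GC and length, PPP1CB stood at -0.01 against the control and -0.18 against CX-5461 120 min, and PPP1CC at 0.05 and 0.01, none with an adjusted p under 0.05 (0.951, 0.124, 0.717 and 0.948).

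In the test for any difference among the 7 groups, 11% of all genes had an adjusted p under 0.05. PPP1R10 is left aside, having been chosen for its differences between groups. Of the 5 partners edgeR passed 0, with 3 at an unadjusted p under 0.05, and DESeq2 passed PPP1CB and PPP1CC. The adjusted p was 0.0535 for PPP1CC, 0.0593 for PPP1CB, 0.112 for WDR82, 0.414 for PPP1CA and 0.559 for TOX4. The count depended on the control libraries, since WDR82, PPP1CA, PPP1CB and PPP1CC passed without control replicate 1, and PPP1CB and PPP1CC without control replicate 2.

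The genes whose log CPM followed PPP1R10 most closely over the 14 libraries, among 10569 genes with a mean of at least 5 CPM, were NMRAL2P (Pearson r = 0.978), TAF1D (0.976), CCN2 (0.974), TXNIP (0.969) and EIF4A2 (0.969). TAF1D encodes a subunit of the selectivity factor SL1 of RNA polymerase I, CCN2 the matricellular protein CTGF, TXNIP a thioredoxin-binding arrestin, EIF4A2 a translation initiation helicase, and NMRAL2P is a pseudogene. All 5 were lowest at CX-5461 10 min. TAF1D averaged 247 CPM in the control and 121 CPM there, CCN2 622 and 334 CPM, EIF4A2 443 and 247 CPM, TXNIP 199 and 121 CPM, and NMRAL2P 9.31 and 3.14 CPM. By group means ZNF7 (0.995) and NMRAL2P (0.989) followed it most closely. The lowest correlations were those of UBALD2 (-0.95), ING1 (-0.945) and PNRC1 (-0.942), and these genes were highest at CX-5461 10 min, PNRC1 at 15.3 CPM against 7.33 CPM in the control. The likeness rested in good part on that group. Without its 2 libraries, r was 0.772 for NMRAL2P, 0.692 for TAF1D, 0.654 for CCN2, 0.684 for TXNIP, 0.541 for EIF4A2, -0.826 for UBALD2, -0.316 for ING1 and -0.397 for PNRC1. For its own partners r was 0.522 for WDR82, 0.146 for PPP1CC, 0.00 for PPP1CB, -0.495 for TOX4 and -0.552 for PPP1CA. Without the CX-5461 10 min libraries it was 0.371 for WDR82, 0.353 for PPP1CC and 0.109 for PPP1CB. There TOX4 changed sign to 0.158, and PPP1CA stood at -0.535. The 5 genes above were picked as the highest of 10569, so higher values than those of the partners follow from that choice.

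**Figure D4:**
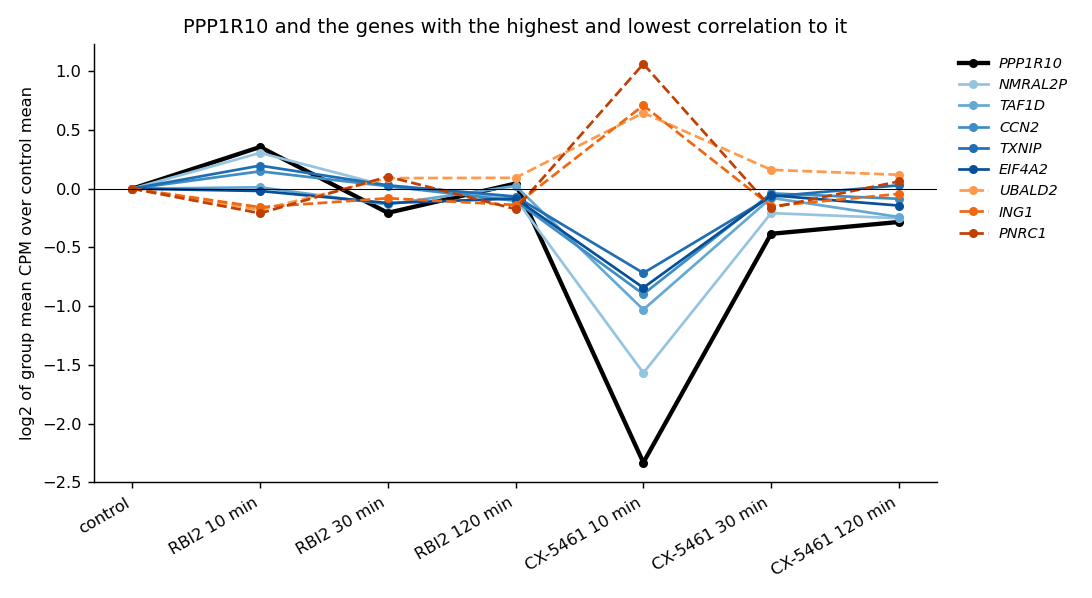
Log2 of the mean CPM of each group over the control mean (y axis) by group (x axis) for PPP1R10 (black), the 5 genes with the highest correlation to it (blue) and the 3 with the lowest (dashed orange). All lines part at CX-5461 10 min, where PPP1R10 is at -2.33, NMRAL2P at -1.56 and PNRC1 at 1.06, and return towards 0 at 30 min.

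The 60 bases around the start sites are shown for PPP1R10, for its partner WDR82 and for the 4 alike genes with an entry in the RefSeq table, because TATAAA (capitals) separated some of them. Each runs from 45 bases before to 15 bases after the start site in GRCh38.p14.

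PPP1R10 (chr6:30617229-30617288, minus strand): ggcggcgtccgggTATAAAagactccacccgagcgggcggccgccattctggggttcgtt
CCN2 (chr6:131951358-131951417, minus strand): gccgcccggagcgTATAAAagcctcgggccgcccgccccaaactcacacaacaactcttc
EIF4A2 (chr3:186783532-186783591, plus strand): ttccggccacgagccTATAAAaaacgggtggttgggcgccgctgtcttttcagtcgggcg
TAF1D (chr11:93741481-93741540, minus strand): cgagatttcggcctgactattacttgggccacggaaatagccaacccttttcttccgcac
TXNIP (chr1:145996565-145996624, minus strand): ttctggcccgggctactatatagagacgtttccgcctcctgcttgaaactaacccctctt
WDR82 (chr3:52278635-52278694, minus strand): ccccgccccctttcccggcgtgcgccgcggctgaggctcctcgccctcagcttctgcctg

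PPP1R10 and CCN2 had TATAAA 32 bases before the start site and EIF4A2 30 bases before it. It was not in the windows of TAF1D, TXNIP or WDR82. The matches describe letters in these windows and were not tested against the RNA values.

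Other genes of the pathway were 153 genes in 8 lists, of which 139 were tested. The lists, chosen with earlier results of these data known, held factors of cleavage, polyadenylation and termination, kinases and phosphatases of the polymerase tail, elongation factors with reported PNUTS substrates, SET1 complexes, Integrator with PP2A, other PP1 regulatory subunits, the TOX family and other phosphatases. With all libraries, edgeR called MYC at CX-5461 10 min against control, where 1.64% of all genes were called. It called MYC again at RBI2 10 min against CX-5461 10 min (1.04%) and RIF1 at RBI2 120 min against CX-5461 120 min (1.67%). In the other comparisons it called 0 of the 139, against 0% to 1.82% of all genes. Nothing about the lists is read from so few calls. The lists too depended on the control. Without control replicate 1 the comparisons with the control called more listed genes, as they called more of all genes. Fits without either control replicate leave 1 control library, so their calls in these comparisons are not read as a result about the lists. At RBI2 120 min against CX-5461 120 min, INTS2 was called lower when either control library was left out, and RIF1 was not called without control replicate 2 (-0.94). MYC, a transcription factor whose protein is reported to be held stable by PNUTS, fell at CX-5461 10 min, the group in which PPP1R10 was low. It stood at 178 and 193 CPM in the control and at 34.9 and 32.3 CPM at CX-5461 10 min, a log2 difference of -2.46 (SE 0.08, adjusted p = 4.15e-08, edgeR with Benjamini-Hochberg adjustment). It was -2.52 without control replicate 1 and -2.42 without control replicate 2. RBI2 10 min held 165 and 165 CPM, and its difference from CX-5461 10 min was 2.30 (adjusted p = 1.22e-07 by edgeR). The list that holds MYC was chosen with earlier results known, so these adjusted p are a description. MYC then stood at 157 and 159 CPM at CX-5461 30 min, so its 2 lowest libraries were the same 2 as for PPP1R10.

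RIF1, a regulatory subunit that brings PP1 to replication origins, was called at RBI2 120 min against CX-5461 120 min. It stood at 88.9 and 100.2 CPM with RBI2 and at 158 and 221 CPM with CX-5461, a log2 difference of -1.0 (SE 0.22, adjusted p = 0.0174, edgeR with Benjamini-Hochberg adjustment). The control replicates held 131 and 205 CPM. Against the control, RBI2 120 min stood at -0.83 (adjusted p = 0.0324 by edgeR), was called without control replicate 1 (-1.12, 0.00137) and stood at -0.48 (0.139) without control replicate 2. The call lies at the 2-fold limit: it held in 7 of 22 alternatives, with -0.36 after the GC and length correction (RIF1 transcripts are 37.1% GC) and -0.70 without CX-5461 120 min replicate 2.

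At CX-5461 10 min against the control, 0 of the 26 termination genes were called by edgeR or by DESeq2, and 7 had an unadjusted p under 0.05. By adjusted p alone, which 4.77% of all genes passed, 3 of these 26 did with all libraries, each lower: PCF11, a termination factor that binds the polymerase tail, at -0.72 (adjusted p = 0.019), CSTF1 at -0.71 (0.00433) and CSTF2T at -0.39 (0.0219), both of the cleavage stimulation factor. The median of the list was -0.13 against -0.04 over all genes. Of the 21 tail kinases and phosphatases, CCNT1, the cyclin of P-TEFb, passed in that way at -0.75 (adjusted p = 0.0336). Of the 34 tested PP1 regulatory subunits, PPP1R15B, PPP1R18 and PHACTR4 passed lower and PPP1R26 higher, between -0.63 and 0.55. Of all 139 listed genes 10 passed in this way, or 7.19%, against the 4.77% of all genes. Without control replicate 2 the log2 differences were -0.53 for CSTF1, -0.42 for CSTF2T, -0.46 for PCF11 and -0.48 for CCNT1. The 4 regulatory subunits then lay between -0.43 and 0.44, and not all of these passes were kept. Without control replicate 1 more listed genes passed, as over all genes, with CPSF1 of the termination list at 0.44 and WDR5 of the SET1 list at 0.25. These fits leave 1 control library. With all libraries, none of the 10 SET1 genes, which share WDR82 with the complex, and none of the 12 other phosphatases passed. Of the 17 genes of Integrator and PP2A 1 passed, and it was higher. At RBI2 10 min against CX-5461 10 min, where 3.06% of all genes passed by adjusted p alone, PCF11 stood at 0.68, CSTF1 at 0.47 and ZC3H4, a restrictor of non-coding transcription, at 0.78. INTS2 stands far to the left in the plot of listed genes without passing the test. It held 0.68 and 27.6 CPM in the control libraries and 0.59 and 1.45 CPM at CX-5461 10 min. DESeq2 called it lower, as did edgeR without control replicate 1 (log2 -4.76), whereas without control replicate 2 it stood at 0.55 (adjusted p = 0.892).

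At RBI2 120 min against the control, 42 of the 139 listed genes passed by adjusted p alone, or 30.2% against 18% of all genes, and edgeR called 0 of them at 2-fold, DESeq2 1 (INTS2), with 71 at an unadjusted p under 0.05. Without control replicate 1 more listed genes passed by adjusted p alone and more were called, as was so over all genes. Without control replicate 2 fewer listed genes passed, also as over all genes, and HCFC1 stood at 1.09. Each of these fits leaves 1 control library, so the shifts are not read as a result about the lists. The tail kinases and phosphatases gave 1 higher and 8 lower, among them CCNT1 (-0.76) and CCNT2 (-0.64), with CDK9, their kinase, at 0.37. The SET1 genes gave 4 higher and none lower: HCFC1 (0.97), SETD1B (0.76), SETD1A (0.64) and WDR5 (0.29). The termination genes were divided, with SYMPK (0.55), CPSF1 (0.56) and ZC3H4 (0.57) higher, and XRN2, the exonuclease that follows the polymerase to termination, at -0.30 with PCF11, CPSF6 and NUDT21 also lower. Without control replicate 2, HCFC1, SETD1A, SETD1B, SYMPK, CPSF1, ZC3H4 and CPSF6 still had an adjusted p under 0.05, and CCNT1, CCNT2, CDK9, WDR5, XRN2, PCF11 and NUDT21 did not (0.0569 to 0.171). Fold changes also followed GC across all genes in the other comparisons with the control, with a Spearman rho of 0.417 at CX-5461 10 min and 0.226 to 0.57 in the rest, against 0.596 here. The part of GC in the counts of listed genes was not tested.

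**Figure D5:**
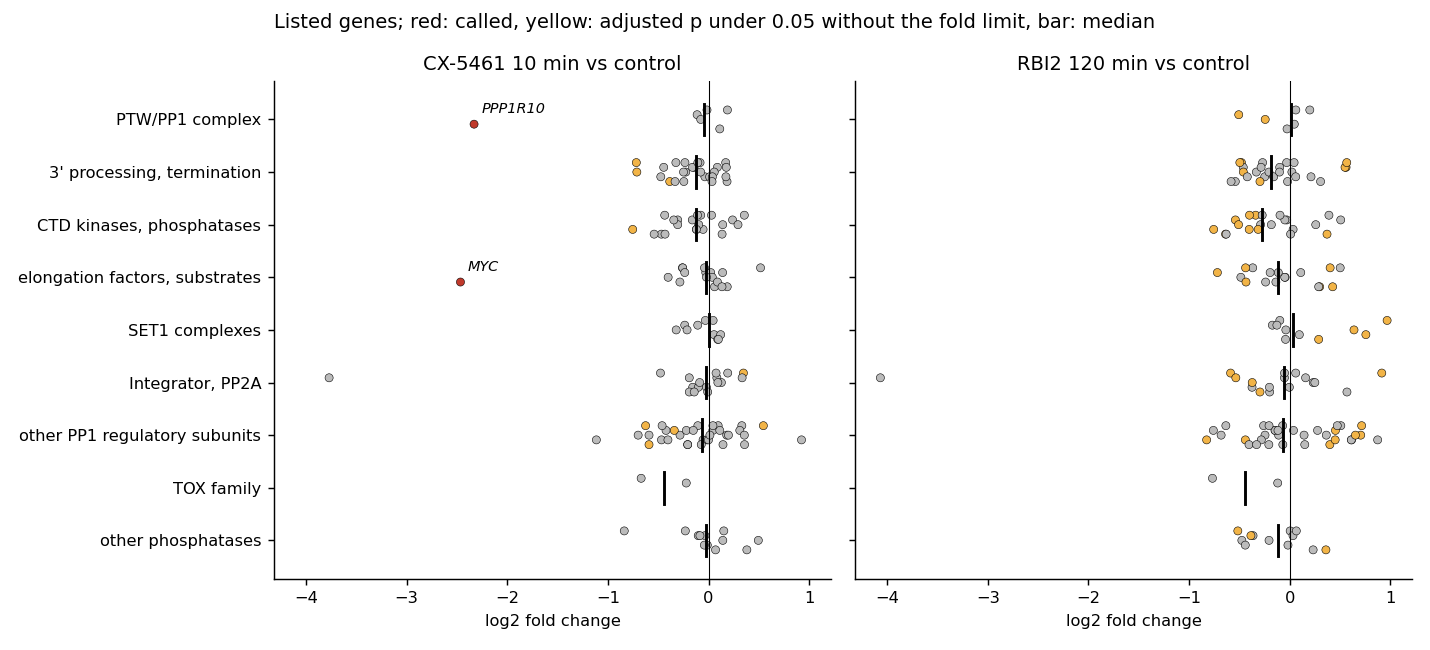
Log2 fold change (x axis) of every tested gene of the 6-gene complex and the 8 other lists (y axis), for CX-5461 10 min and RBI2 120 min against control; red points are called, yellow points have an adjusted p under 0.05 without a 2-fold change, and black bars are list medians. PPP1R10 at -2.33 and MYC at -2.46 are the called points on the left, and there is none on the right.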

How the data were processed

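RNA-seq of 14 MDA-MB-231 libraries in 7 groups was used. The members and all gene lists were chosen with earlier results of these data known. The deposited estimated counts and TPM values were made by the authors: the libraries came from a stranded mRNA kit, reads of the ribosomal DNA repeat were removed, and Salmon 1.3.0 assigned the rest to GRCh38 transcripts. The submitters' processing notes also name STAR 2.7.6a, SAMtools 1.11, bedtools 2.29.2 and DESeq2 1.28.1. Group, time and replicate were taken from the sample labels, whose times differ from the tags in the names of the treated files. The methods and design text call the control untreated, while elsewhere the study speaks of a DMSO control.

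Here, transcripts were matched without version to GENCODE release 44 (225662 of 228754), summed to genes and rounded. edgeR 4.0.16 (R 4.3.3) was fitted once to all 7 groups after TMM scaling and a filter with a minimum count of 10, which left 15426 genes. Quasi-likelihood tests with Benjamini-Hochberg adjustment called a gene at adjusted p under 0.05 and a log2 change of at least 1. The common biological coefficient of variation was 12.3%, with 10.57 degrees of freedom. No pair of replicates was alike within counting noise. Library totals ranged from 14112299 to 24849354 reads, median 16305236. Correlations used log2 CPM with a prior count of 2.

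Named genes were the 6 members, listed genes called in any comparison (at most 6 a list), the 5 highest and 3 lowest correlations with PPP1R10 over libraries and 3 highest over group means, genes overlapping a member or starting within 5 kb, and cell markers. The other listed genes, those passing by adjusted p alone and INTS2, were named after their values were seen. Alternatives were DESeq2 1.42.0, its size factors in edgeR, no filter, a transcript length offset, a GC and length correction, a replicate block with and without that correction, the libraries of a comparison alone, no fold limit, unadjusted p and leaving out each library. Leaving out control replicate 2 for TPM levels and transcript shares, and CX-5461 10 min for correlations, was chosen after seeing the data. Protein sequences were not used here, and 1 gene chosen by the rule for named genes is not reported here.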

Additional observations from a re-analysis of the deposited data

Results flagged for a closer look

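A set of 6 values was singled out because the 2 compounds differed at the same time and dose. After 10 min, PPP1R10 RNA was higher with RBI2 than with CX-5461 by 2.68 on the log2 scale. This is a description, since the gene was chosen on it. MYC was higher by 2.30 (adjusted p = 1.22e-07, edgeR quasi-likelihood test with Benjamini-Hochberg adjustment). After 120 min PPP1R10 was 0.33 higher with RBI2, again as a description. At that time PPP1CB differed by -0.69, PPP1CC by -0.27 and RIF1 by -1.0, with adjusted p of 0.0118, 0.0214 and 0.0174 by edgeR. In all 6 the libraries of the 2 compounds did not overlap. The values were picked for a difference between the compounds, so this adds no support. MYC and RIF1 came from lists chosen with earlier results of these data known, so their adjusted p are a description too. Calls at 10 min were made for 1.04% of all genes. At 120 min 1.67% were called, RIF1 among them, while PPP1CB and PPP1CC stayed below 2-fold and passed by adjusted p alone, as did 16.1% of all genes. After the correction for GC and length, PPP1CB stood at -0.18 (adjusted p = 0.124), PPP1CC at 0.01 (0.948) and RIF1 at -0.36 (0.0873), all by edgeR. The causes were not tested.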

How the results depend on the processing

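The PPP1R10 difference of CX-5461 10 min from the control ran from -3.26 (length offset) to -2.23 over 22 alternatives, given as a description. With only the 4 libraries of the comparison it was -2.31, and 0 members and 3 genes in all were called. RBI2 10 min against CX-5461 10 min gave 2.63 to 2.83, again as a description. The 5 partners were called in none of 990 alternatives, though the sign changed in 149, spread over 33 of 45 values. The following counts of members include PPP1R10 where it meets the threshold, and nothing is read from its part in them. Without the fold limit, 2 members were called at RBI2 120 min against control (PPP1CB and PPP1CC) and 3 against CX-5461 120 min, of which PPP1CB and PPP1CC are partners. The test of any difference, in which each count holds PPP1R10 and the rest are partners, called 3 members by DESeq2, 2 with its size factors and 2 without a filter, and 1 to 5 with 1 library left out (5 without control replicate 1, 3 without control replicate 2, 2 without either CX-5461 30 min library). PPP1CB kept an adjusted p under 0.05 in 15 of 22 alternatives against control and 17 of 22 against CX-5461 120 min, PPP1CC in 7 and 11. The share of TOX4-203 was 63.0% by reads and 44.7% by TPM. The causes were not tested. The log CPM difference of replicate 1 from replicate 2 was taken for each gene in each group and correlated between groups. Over the 21 pairs of groups r ran from -0.179 to 0.18, with 3 over 0.1. The replicate numbers were therefore not taken to pair libraries. With the replicate block PPP1R10 stood at -2.33, and no member call changed. Without control replicate 1 the CX-5461 10 min comparison called 1308 genes in place of 253, and without control replicate 2 it called 156. Counts of the comparisons with the control rest on 2 libraries that lay far apart.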
